A study of Homo sapiens with 14 samples.

Results

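The genes described here are 10 components of the Notch pathway: the receptors NOTCH1, NOTCH2 and NOTCH3, the canonical ligands JAG1 and JAG2, the divergent ligands DLL3 and DLK1, the co-activator MAML2, and the target genes HES1 and HEY1. They were chosen by name, with earlier results of these data known, from the 20049 gene symbols of the deposited table, and all 10 were measured. Notch signalling passes between touching cells: a ligand on one cell pulls on a receptor on the next, the receptor is cut, and its freed intracellular domain enters the nucleus. There it joins the DNA-binding protein RBPJ and a Mastermind-like co-activator, and switches on repressor genes of the HES and HEY families. In the nervous system these repressors are known for holding back neuronal differentiation, and in neuroblastoma, a childhood tumour of the sympathetic lineage, Notch genes are known to be linked to the mesenchymal cell state.

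RNA was sequenced from 14 established human neuroblastoma lines: SK-N-SH and SH-SY5Y, IMR32 and IMR5-75, LS, Lan-6, NGP, NBL-S, GI-ME-N, CLB-GA, SK-N-AS, SK-N-FI, SK-N-DZ and SK-N-BE(2)C. The lines were kept in RPMI1640 or DMEM with serum, no treatment is given, and each line is 1 library with no replicate. By its title the series is about damage to telomeres and antibody treatment against PD-L1, and the labels divide the lines into no classes. SH-SY5Y is a subclone of SK-N-SH and IMR5-75 of IMR32, which is textbook knowledge and not in the labels, so tests across lines left out both subclones and used 12 lines. A difference between 2 single lines has no replicate check, and its interval covers counting error only. In bulk RNA from a culture, fewer cells that express a gene and less RNA per cell cannot be told apart.

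Libraries held between 35856642 (Lan-6) and 58644013 (LS) counts, and a count of 0 allows up to 3 counts, or 0.0514 CPM in LS and 0.102 CPM in Lan-6. CPM, the usual depth-scaled unit, divides each count by the scaled total of its library. Long transcripts were low in Lan-6 and GI-ME-N (rho of level with transcript length -0.52 and -0.43 over 8471 stably expressed genes). Transcripts rich in G and C were high in Lan-6 (rho 0.69) and low in LS (rho -0.41). Where removing this trend moved a level in Lan-6 clearly, both values are given, as they are for JAG1 and MAML2 in GI-ME-N. Some levels of NOTCH2 and DLL3 are also given both ways, and levels with a single value keep the trend in. A mesenchymal score, the mean centred log2 CPM of 15 markers such as VIM and FN1, was 5.98 in SK-N-SH and 5.88 in GI-ME-N, far above SK-N-AS at 1.29, LS at 0.57 and the other 10 lines at -0.22 or less. An adrenergic score, built the same way from 13 markers of the sympathetic lineage such as DBH, was lowest in GI-ME-N (-4.06) and SK-N-SH (-3.30) and highest in CLB-GA (2.76). Summed markers of endothelium reached at most 10.9 CPM and those of Schwann cells at most 19.6 CPM in any line. Leukocyte markers were uneven: SK-N-AS held 469.6 CPM of PTPRC (2.91 or less elsewhere) and LS 42.1 CPM of LYZ (0.888 or less elsewhere). CD68 was highest in SK-N-SH (46.9 CPM), GI-ME-N (29.4 CPM) and SK-N-AS (17.5 CPM), the 3 lines with the highest mesenchymal scores, while CD14 reached at most 2.37 CPM and CD3E at most 0.0683 CPM in any line. The 6 fibroblast markers summed to between 10.03 CPM in Lan-6 and 5869 CPM in SK-N-SH. COL3A1 (5349 CPM in SK-N-SH), COL1A2 (1872 CPM in GI-ME-N) and PDGFRB (231 CPM in SK-N-SH) were highest in a line with a high mesenchymal score, and DCN and LUM in SK-N-AS (145.5 and 297 CPM). PDGFRA was highest in NGP (263 CPM), a line with a low score, and lower in SK-N-SH (158 CPM) and GI-ME-N (80.9 CPM). What part these markers have in the results below was not tested.

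The promoters of 3 target genes are shown because they carry letters of the sequence that RBPJ is known to bind, and because the 3 genes differed from each other in where they were high. Each is the 250 bases before the RefSeq start on GRCh38.p14, written 5′ to 3′ on the gene's strand. Capitals mark TGGGAA, the core of that sequence, or TTCCCA where it lies on the opposite strand. HES1 is read from chr3:194135898-194136147 on the plus strand, HES4 from chr1:1000098-1000347 on the minus strand and HEYL from chr1:39639644-39639893 on the minus strand.
HES1: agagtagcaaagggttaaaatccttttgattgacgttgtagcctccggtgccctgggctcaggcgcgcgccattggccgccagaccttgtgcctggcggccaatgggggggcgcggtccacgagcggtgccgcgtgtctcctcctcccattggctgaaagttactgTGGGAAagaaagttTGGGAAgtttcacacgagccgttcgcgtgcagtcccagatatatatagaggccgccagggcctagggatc
HES4: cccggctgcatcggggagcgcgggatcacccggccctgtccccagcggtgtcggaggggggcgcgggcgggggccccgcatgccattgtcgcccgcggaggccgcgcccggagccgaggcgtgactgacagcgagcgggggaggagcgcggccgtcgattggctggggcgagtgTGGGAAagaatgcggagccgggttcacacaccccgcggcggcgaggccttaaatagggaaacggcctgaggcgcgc
HEYL: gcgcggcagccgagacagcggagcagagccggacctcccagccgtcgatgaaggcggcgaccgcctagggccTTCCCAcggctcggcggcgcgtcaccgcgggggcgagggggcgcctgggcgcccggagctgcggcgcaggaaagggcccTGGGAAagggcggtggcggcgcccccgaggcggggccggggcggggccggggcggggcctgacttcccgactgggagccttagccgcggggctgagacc
HES1 held a pair of matches on its own strand, at -84 and -70 from the start, with the first of them extended to GTGGGAA. HES4 held 1, at -76, also extended to GTGGGAA. HEYL held a match on the opposite strand at -178 and 1 on its own strand at -99.

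Searched on both strands, TGGGAA was in 20.8% of all 35116 RefSeq promoter windows of this length, and GTGGGAA, which overlaps it, in 5.4%. Of 8 target genes found in that table, 5 held TGGGAA (HES1, HES4, HES5, HEY2 and HEYL), and the same 5 held GTGGGAA. Of the 7 members searched there, NOTCH1, NOTCH2, NOTCH3, JAG1, JAG2, MAML2 and HES1, the letters were found in HES1. A match is a description of the letters and shows no binding.

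Of the 3 member receptors, NOTCH3 was above 10 CPM in the most lines, 8 of 14, and NOTCH2 was the most uneven. NOTCH3 (chr19:15159038-15200981, GRCh38, minus strand) was highest in LS at 184 CPM and SK-N-AS at 169 CPM. It followed at 79.8 CPM in SK-N-DZ, 62.4 CPM in SK-N-SH, 34.8 CPM in IMR5-75, 28.5 CPM in SH-SY5Y, 18.6 CPM in CLB-GA and 10.6 CPM in NBL-S. The other 6 lines held little: 2.91 CPM in Lan-6 (1.96 without the trend), 2.13 in SK-N-FI, 2.12 in IMR32, 1.13 in NGP, 0.797 in SK-N-BE(2)C and 0.310 CPM in GI-ME-N, which had 10 counts. The 2 lines highest for mesenchymal markers therefore stood on opposite sides of the median of 14.6 CPM.

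NOTCH2 (chr1:119911553-120069626, minus strand) was at 226 CPM in SK-N-SH, 3.39-fold above LS at 66.6 CPM. It was at 32.9 CPM in SH-SY5Y, 18.1 CPM in SK-N-DZ and 3.35 CPM in SK-N-AS, and below 1 CPM in the other 9 lines. In 7 lines it had at most 10 counts, among them GI-ME-N with 4, and Lan-6 and NBL-S with 0. NOTCH2 shares nearly identical sequence with the NOTCH2NL genes, so how reads were divided between them is uncertain. NOTCH2NLA was between 0.0339 CPM in Lan-6 and 10.3 CPM in SK-N-AS, and at 5.38 CPM in SK-N-SH, where NOTCH2 was highest.

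NOTCH1 (chr9:136494433-136545786, minus strand) was expressed in 5 lines and nearly silent in the rest. SK-N-SH held 83.0 CPM, with 49.8 CPM in IMR5-75, 42.8 CPM in LS, 26.8 CPM in NGP and 14.1 CPM in IMR32. The next level down was 1.56 CPM in SK-N-DZ, followed by GI-ME-N (1.52 CPM), SH-SY5Y (0.849), SK-N-BE(2)C (0.501) and SK-N-AS (0.165). CLB-GA and SK-N-FI had 3 counts each, Lan-6 had 1 and NBL-S had 0. No line lay between 1.56 and 14.1 CPM.

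The ligands were distributed differently from the receptors. JAG1 (chr20:10637684-10673999, minus strand), a canonical membrane-bound ligand, was highest in NGP (47.4 CPM), GI-ME-N (31.6 CPM) and SK-N-SH (31.3 CPM). CLB-GA held 19.4 CPM, LS 13.1 CPM, SK-N-DZ 11 CPM, IMR32 9.86 CPM, IMR5-75 6.69 CPM, SH-SY5Y 5.78 CPM and NBL-S 3.02 CPM. It was low in SK-N-AS at 1.25 CPM, SK-N-FI at 1.19 CPM, Lan-6 at 0.441 CPM (0.577 without the trend) and SK-N-BE(2)C at 0.182 CPM. GI-ME-N, with hardly any NOTCH2 or NOTCH3, thus had as much JAG1 as SK-N-SH within counting error while the trend was left in. Once it was removed, GI-ME-N held 37.7 CPM of JAG1, above SK-N-SH with 32.3 CPM, so that likeness depends on the trend.

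JAG2 (chr14:105140981-105168824, minus strand), its paralog, had another order. It reached 61.6 CPM in SK-N-BE(2)C, 46.5 CPM in NGP, 41.5 CPM in IMR32, 40.8 CPM in IMR5-75 and 15 CPM in SK-N-DZ. The remaining lines ran from 6.24 CPM in Lan-6 (3.72 without the trend), 5.07 CPM in LS and 4.73 CPM in SH-SY5Y to 0.279 CPM in GI-ME-N. SK-N-BE(2)C, the lowest line for JAG1, was thus the highest for JAG2, while NGP was near the top for both.

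DLL3 (chr19:39498895-39508481, plus strand), a Delta-like protein known to hinder Notch within the cell that makes it and a surface antigen of neuroendocrine tumours, was above 10 CPM in 10 lines. It was at 85.5 CPM in SK-N-AS, 78.8 in IMR5-75, 66.7 in SK-N-DZ, 66.4 in CLB-GA, 59.1 in LS, 43.5 in SK-N-FI, 32.3 in IMR32, 27.4 in NBL-S, 22.7 in NGP and 15.9 CPM in SH-SY5Y. It was lowest in GI-ME-N at 0.837 CPM, Lan-6 at 2.30 CPM (0.857 CPM with the trend removed), SK-N-BE(2)C at 5.24 CPM and SK-N-SH at 5.46 CPM. SK-N-DZ and CLB-GA could not be told apart by counting error, nor could SK-N-BE(2)C and SK-N-SH. With the trend removed, DLL3 was highest in IMR5-75 at 96.5 CPM, ahead of SK-N-AS (81.4), LS (79.9), SK-N-DZ (77.7) and CLB-GA (74.4 CPM).

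DLK1 (chr14:100725705-100738224, plus strand), an imprinted gene for a Delta-like protein that lacks the receptor-binding domain of canonical ligands, fell into widely spaced levels. It was at 1929.9 CPM in SK-N-FI, 1715 in Lan-6, 1574 in NBL-S, 1168 in CLB-GA and 945 CPM in SK-N-BE(2)C. With the trend removed, Lan-6 held 1386 CPM, below NBL-S at 1609 CPM. SH-SY5Y held 157 CPM, SK-N-AS 30.6, NGP 27.8, IMR5-75 10.4, IMR32 8.86, SK-N-DZ 4.87, LS 4.35, GI-ME-N 1.33 and SK-N-SH 0.988 CPM. The 5 highest lines each had a mesenchymal score of -0.22 or less and an adrenergic score of 1.59 or more, and the 2 lowest lines were those with the highest mesenchymal scores. Over 12 lines, log2 CPM of DLK1 and the adrenergic score had r = 0.90 and rho = 0.82, and r = 0.89 once Lan-6 and SK-N-FI, farthest from the median of DLK1, were left out. The points share libraries, and no test was made of them.

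MAML2 (chr11:95976598-96343180, minus strand), a Mastermind-like protein that joins the receptor's intracellular domain on RBPJ, was highest in SK-N-SH (92.7 CPM) and SK-N-BE(2)C (53.9 CPM). It was at 36.1 in LS, 22.6 in SK-N-DZ and 21.6 CPM in GI-ME-N. With the trend removed, GI-ME-N held 29.3 CPM and SK-N-DZ 20.0 CPM. NGP held 7.88 CPM, SK-N-AS 3.35, IMR5-75 2.75, SH-SY5Y 2.09, NBL-S 1.91, IMR32 0.948, SK-N-FI 0.849, CLB-GA 0.486 and Lan-6 0.475 CPM (0.860 CPM with the trend removed). SK-N-BE(2)C combined the second highest MAML2 with less than 1 CPM of each of the 3 receptors.

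HES1 (chr3:194136145-194138732, plus strand), the repressor most often read as an output of Notch, stood apart in a single line. SK-N-SH held 89.7 CPM, 14.7-fold above Lan-6 at 6.10 CPM (4.18 CPM with the trend removed). It was at 4.60 CPM in SK-N-AS, 3.78 in SK-N-BE(2)C, 1.68 in LS, 1.45 in SH-SY5Y, 1.22 in IMR5-75, 1.01 in SK-N-FI, 0.705 in SK-N-DZ, 0.646 in NGP, 0.574 in IMR32, 0.373 in NBL-S and 0.148 CPM in CLB-GA. GI-ME-N had 0 counts, which allows up to 0.0930 CPM. The 2 lines with the highest mesenchymal scores were thus the highest and the lowest of the 14 for HES1. LS and SK-N-AS, which had the most NOTCH3, had 1.68 and 4.60 CPM.

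HEY1, a related repressor, followed another order. It was at 54.0 CPM in SK-N-FI, 3.39-fold above SK-N-SH at 15.9 CPM, and SH-SY5Y held 15.3 CPM, SK-N-BE(2)C 14.2, Lan-6 11.4, SK-N-AS 11.4, CLB-GA 9.12, NBL-S 7.39, NGP 5.62, IMR32 3.74, IMR5-75 2.59, SK-N-DZ 2.16 and LS 1.66 CPM. GI-ME-N was lowest again, with 4 counts or 0.124 CPM. SK-N-FI, the highest line for HEY1, had 3 counts of NOTCH1, 27 of NOTCH2 and 2.13 CPM of NOTCH3.

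**Figure D1:**
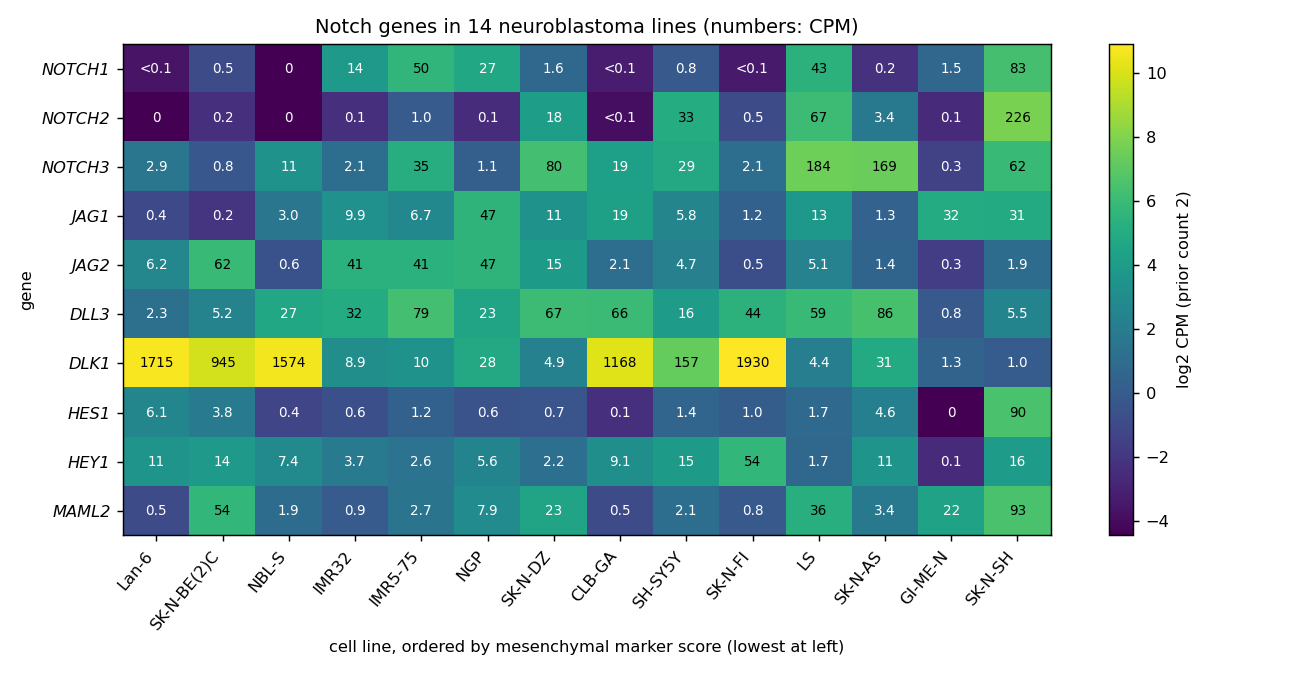
Colours show log2 CPM with a prior count of 2 and printed numbers show CPM for the 10 genes (rows) in 14 lines (columns), ordered by mesenchymal score from Lan-6 to SK-N-SH. The 2 rightmost lines differ in NOTCH1, NOTCH2, NOTCH3, HES1 and HEY1, are alike in JAG1 and are both at about 1 CPM of DLK1.

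All 10 genes varied more between lines than most genes did. Over 17165 expressed genes the median SD of log2 CPM between lines was 0.83. It was 1.99 for HEY1, 2.07 for DLL3, 2.35 for JAG1, 2.55 for JAG2, HES1 and MAML2, 2.97 for NOTCH3, 3.86 for NOTCH1, 4.06 for DLK1 and 4.14 for NOTCH2. HEY1, the least variable, was above 83.9% of the genes and NOTCH2 above 99.7%. These are descriptions of 14 single libraries. The members were chosen with earlier results of these data known, and what part that choice has in their spread was not tested. Outside the members the SD was 0.57 for MAML1 and 0.91 for NOTCH4, but 3.03 for HEYL and 3.27 for HES4.

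To compare receptors with each other, CPM was divided by transcript length in kilobases, and NOTCH4, the remaining receptor, was added. The summed receptor level was 36.4 CPM per kilobase in SK-N-SH, 32 in LS and 20.1 in SK-N-AS, and 11.9 or less elsewhere, down to 0.936 in GI-ME-N and 0.730 in SK-N-BE(2)C. NOTCH3 led in 6 lines, with 96.6% of the sum in SK-N-AS, 77.4% in SK-N-DZ, 66.5% in LS, 64.7% in CLB-GA, 57.9% in NBL-S and 39.7% in SH-SY5Y. NOTCH1 led in NGP (78.4%), IMR32 (69.9%) and IMR5-75 (53.9%), and NOTCH2 in SK-N-SH (54.5%). NOTCH4 led in Lan-6 (87.0%), SK-N-FI (82.6%), SK-N-BE(2)C (78.1%) and GI-ME-N (77.6%), which all had a sum of at most 2.62 CPM per kilobase. NOTCH4 itself lay between 1.94 CPM (LS) and 15.4 CPM (Lan-6, or 10.4 CPM without the trend).

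Among the canonical ligands JAG1, JAG2, DLL1 and DLL4 and the divergent DLL3, it was DLL3 that had the highest level per kilobase in 10 lines. Its share was between 94.8% in SK-N-AS and 33.4% in NGP, where JAG1 and JAG2 were at 7.97 CPM per kilobase each. JAG1 led in GI-ME-N (92.4%) and SK-N-SH (65.1%), and JAG2 in SK-N-BE(2)C (81.0%) and Lan-6 (47.9%). The 2 lines with the highest mesenchymal scores were therefore those in which JAG1 led. DLL1, a canonical Delta ligand, added 14.4 CPM per kilobase in IMR5-75, the line with the highest ligand sum, 56.4. The divergent DLL3 made up 33.8 of that sum.

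**Figure D2:**
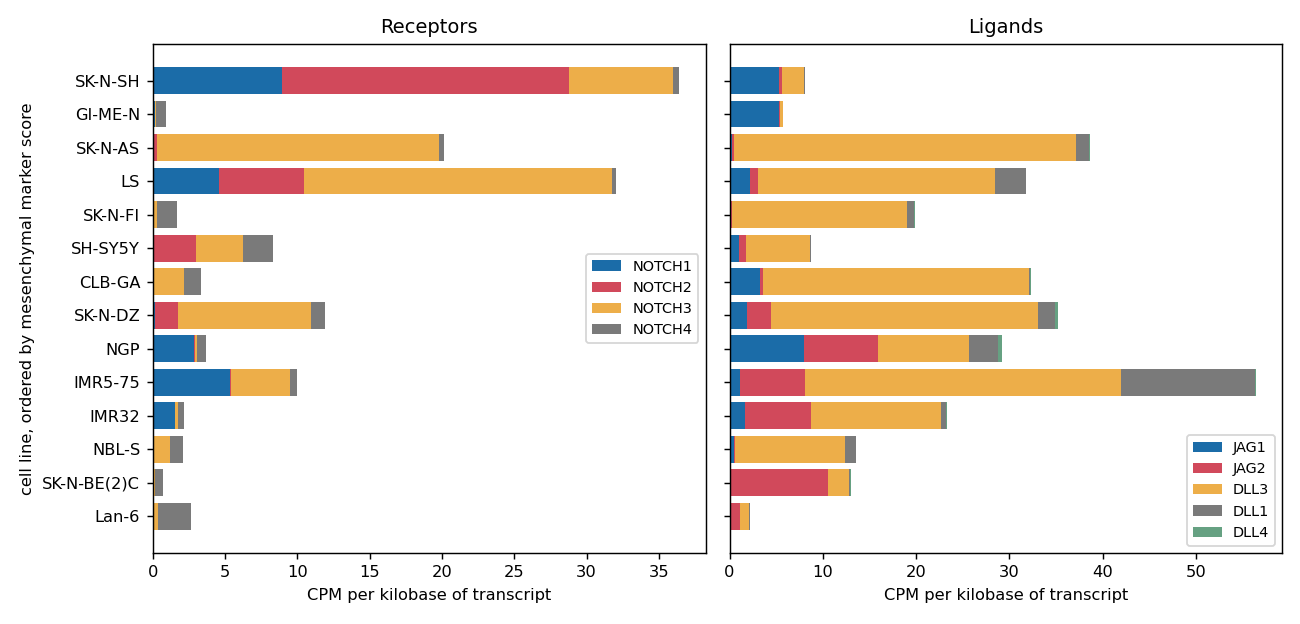
Stacked bars give CPM per kilobase of transcript of 4 receptors (left) and 5 ligands (right) in each of 14 lines, ordered by mesenchymal score. SK-N-SH and LS have the longest receptor bars, while GI-ME-N and SK-N-BE(2)C are under 1 CPM per kilobase, and DLL3 takes the largest share of the ligand bar in 10 lines.

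The first comparison across lines asked whether the genes follow the mesenchymal score. Slopes are log2 changes per SD of the score over 12 lines, tested for 16906 genes outside the score with edgeR's quasi-likelihood test and Benjamini-Hochberg adjustment. Of all genes, 4.03% were called higher and 2.96% lower with a rising score at an adjusted p under 0.05. Of the 10 members, all of which passed the filter on low counts, 0 were called in either direction. In simulated counts a slope of 1 was called 32% of the time and a slope of -1 20%. Slopes of that size were thus mostly missed. An unadjusted p under 0.05 was reached by 4 members and 23.2% of all genes. DESeq2 called 3 members and 18.3% of all genes, and limma on the deposited log2 values called 0 members and 6.73% of all genes. Their slopes were positive in 6 and negative in 4, with a median of 0.65 against -0.03 for all genes tested.

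HES1 had a slope of 1.68 (SE 0.52, adjusted p = 0.0701 in edgeR), but it rested on SK-N-SH: without that line it was -0.88 (adjusted p = 0.720), and with SH-SY5Y and IMR5-75 in place of their parents it was -0.90. Without GI-ME-N or Lan-6 it passed the threshold (1.94, adjusted p = 0.0302, and 2.02, adjusted p = 0.0290). DLK1 had the steepest slope, -3.72 (SE 1.26, adjusted p = 0.0994), and that of JAG2 was -1.72 (SE 0.65, adjusted p = 0.136). DESeq2 called HES1, DLK1 and JAG2, with adjusted p = 0.0307, 1.5e-07 and 0.00766. NOTCH2 had a slope of 2.26 (SE 1.02, adjusted p = 0.207 in edgeR), which was 4.71 without SK-N-DZ (adjusted p = 0.141). Without SK-N-SH it was 2.25 with an SE of 3.09 (adjusted p = 0.737). With the subclones in place of the parents the slope of NOTCH2 was 0.79 (SE 2.88, adjusted p = 0.906). The slope of JAG2 was -2.61 without SK-N-SH and -1.535 without GI-ME-N (adjusted p = 0.410 in edgeR). That of DLK1 lay between -3.823 and -3.585 with any 1 line left out, with edgeR adjusted p between 0.0504 and 0.370.

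NOTCH1 at 1.10 (SE 0.86), NOTCH3 at 0.99 (SE 1.20), MAML2 at 0.80 (SE 0.54), JAG1 at 0.50 (SE 0.50), HEY1 at -0.09 (SE 0.58) and DLL3 at -0.92 (SE 0.75) had adjusted p between 0.398 (MAML2) and 0.946 (HEY1). The slope of NOTCH1 turned to -0.11 without SK-N-SH. With 1 line left out, slopes ran from 0.62 (without SK-N-AS) to 2.10 (without GI-ME-N) for NOTCH3, 0.26 (without SK-N-SH) to 1.32 (without SK-N-BE(2)C) for MAML2, 0.41 (without GI-ME-N) to 0.85 (without NGP) for JAG1 and -1.20 (without SK-N-AS) to -0.16 (without GI-ME-N) for DLL3. The score itself is carried by SK-N-SH and GI-ME-N, and these lines differ in the receptors and targets by the amounts given above.

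**Figure D3:**
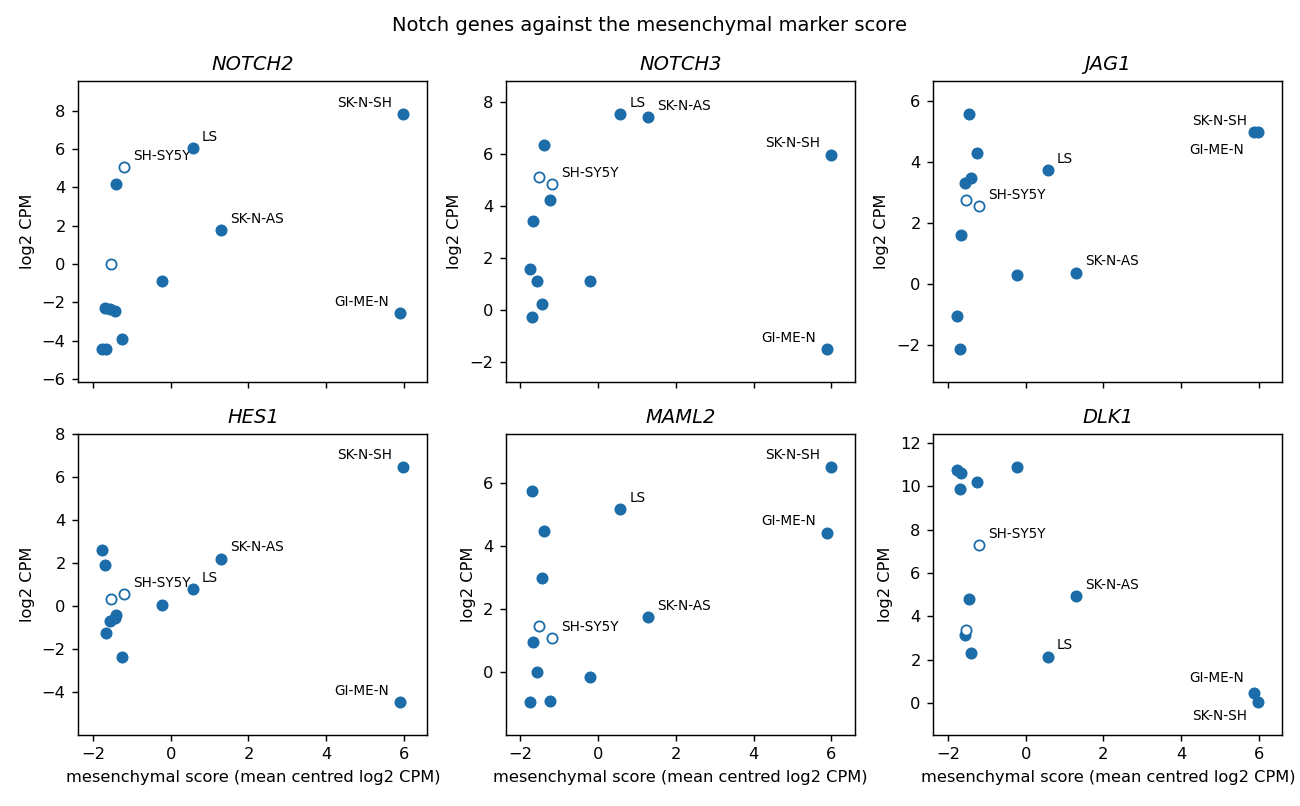
Each of 6 panels plots log2 CPM of a member (NOTCH2, NOTCH3, JAG1, HES1, MAML2 or DLK1) against the mesenchymal score (mean centred log2 CPM of 15 markers). Filled points are the 12 lines used in the tests and open points the subclones SH-SY5Y and IMR5-75. GI-ME-N and SK-N-SH, both near a score of 6, lie at opposite ends of the range for HES1 and together at its low end for DLK1.

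The second comparison used the level of MYCN, the transcription factor gene amplified in many aggressive neuroblastomas, with SK-N-SH lowest (0.384 CPM) and SK-N-BE(2)C highest (2245 CPM). The lines lowest for MYCN, SK-N-SH, SK-N-AS (0.496 CPM) and GI-ME-N (1.33 CPM), were also those with the highest mesenchymal scores. The 2 comparisons are therefore not independent, and a slope on MYCN cannot be told apart from an opposite slope on the mesenchymal score. Among 16920 genes tested, 1.10% were called higher and 2.59% lower with rising MYCN. Of the 10 members 0 were called by edgeR, and 2 had an unadjusted p under 0.05, as had 25.2% of all genes. DESeq2 called 2 members and 17.7% of all genes, and limma 0 members and 2.03% of all genes, so these member counts are near the background. Slopes were positive in 3 and negative in 7, with a median of -0.23 against -0.02 for all genes. JAG2 came closest, with a slope of 1.87 per SD of MYCN (SE 0.49, adjusted p = 0.0530 in edgeR). Across 21 alternatives its adjusted p lay between 8.9e-04 (DESeq2) and 0.112, and it passed with all 14 lines (0.0262) and with the GC and length trend removed (0.0427).

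The 4 lines highest for JAG2 were SK-N-BE(2)C, NGP, IMR32 and IMR5-75, with MYCN at 2245, 1177, 1442 and 598 CPM. LS, with 949 CPM of MYCN, held 5.07 CPM of JAG2. HES1 had a slope of -1.73 (SE 0.57, adjusted p = 0.0945), which DESeq2 called (adjusted p = 0.0349). Without SK-N-SH it was -0.45 (adjusted p = 0.673). For the other 8 members adjusted p lay between 0.534 (NOTCH2) and 0.985 (DLK1). Of those 8, every slope but that of HEY1 changed sign under at least 1 alternative.

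**Figure D4:**
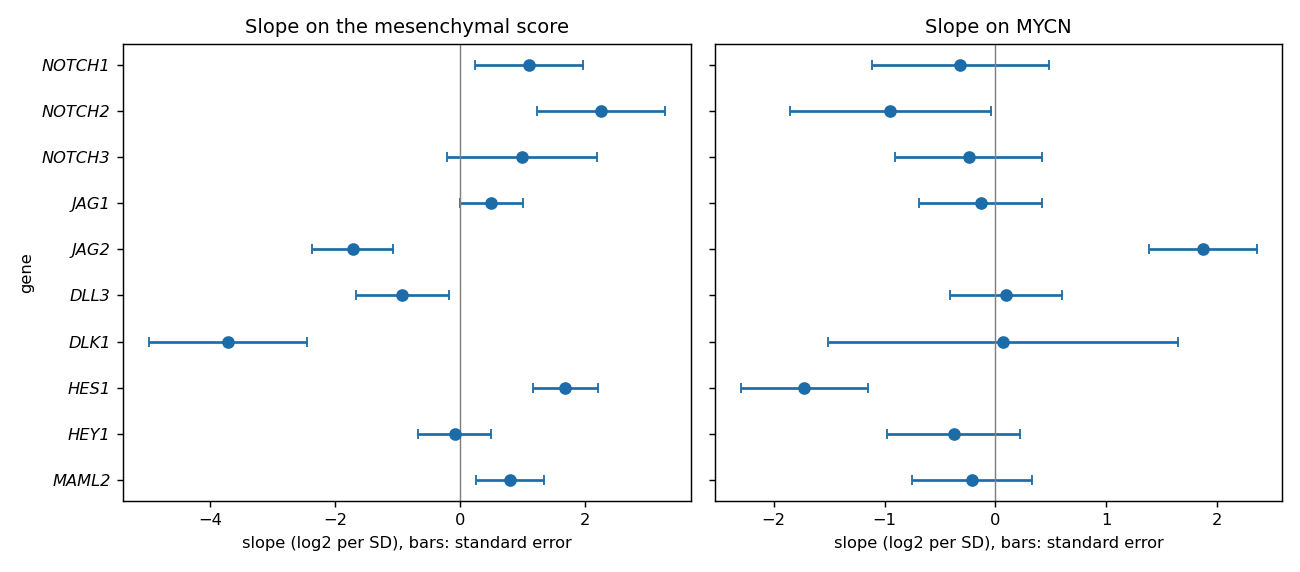
Points are slopes of the 10 genes in log2 per SD of the mesenchymal score (left) or of MYCN log2 CPM (right) over 12 lines, and bars are standard errors. DLK1 at -3.72 and NOTCH2 at 2.26 are the steepest on the left, and JAG2 at 1.87 and HES1 at -1.73 on the right, with 0 of the 10 past an adjusted p of 0.05 in either panel.

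The rest of the pathway was read from lists of 51 further genes, of which 49 were measured and 47 tested. On the mesenchymal score 1 of the 47 was called higher and 3 lower, against 4.03% and 2.96% of all genes, so the higher count is under the background share and the lower count somewhat over it. FURIN, the protease that first cuts Notch receptors in the secretory pathway, rose with a slope of 0.82 (SE 0.18, adjusted p = 0.0161 in edgeR), with CLB-GA lowest (11.1 CPM) and GI-ME-N (126 CPM) and SK-N-SH (122 CPM) highest. Its slope stayed between 0.77 and 0.91 with any 1 line left out. The call was lost without GI-ME-N (slope 0.77, adjusted p = 0.122), without SK-N-SH (0.79, adjusted p = 0.0919) and with the subclones in place of the parents (0.80, adjusted p = 0.0716). Of the other 8 genes of receptor cleavage, among them ADAM10, ADAM17 and the presenilin complex, 7 had positive slopes and none was called, NCSTN being the steepest at 0.39 (SE 0.13, adjusted p = 0.0994).

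NEURL1, a ubiquitin ligase that drives ligand uptake, fell with a slope of -2.24 (SE 0.33, adjusted p = 0.00160), with CLB-GA highest (40.5 CPM) and GI-ME-N (0.527 CPM) and SK-N-SH (0.329 CPM) lowest. This call held without any single line. DTX1, a ubiquitin ligase that acts on Notch receptors, fell with a slope of -2.05 (SE 0.53, adjusted p = 0.0338). The lowest lines were SK-N-AS at 0.189 CPM, GI-ME-N at 0.217 CPM and SK-N-SH at 1.15 CPM, and the highest was SH-SY5Y at 52.0 CPM. With any 1 line left out its slope lay between -2.90 and -1.90. Its call was lost without GI-ME-N (adjusted p = 0.176), IMR32 (0.0516) or NBL-S (0.0554).

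HEYL, a repressor of the HEY family, fell with a slope of -3.20 (SE 0.85, adjusted p = 0.0397). Lan-6 held 63.7 CPM (37.5 without the trend), with 19.9 CPM in CLB-GA and 18.3 CPM in NBL-S, and had 2 counts in GI-ME-N and 1 in SK-N-SH. HES1 and HEYL were thus at opposite ends in SK-N-SH. The HEYL slope lay between -3.39 and -2.79 with any 1 line left out. Its call was lost without CLB-GA, GI-ME-N, LS, NBL-S, SK-N-AS or SK-N-SH (adjusted p between 0.0558 and 0.182), with the subclones (0.132) and with limma on the deposited values (slope -1.09, adjusted p = 0.179). Without both GI-ME-N and SK-N-SH all 4 calls were lost, with slopes of 0.26 for FURIN (adjusted p = 0.963), -2.54 for NEURL1 (0.435), -6.18 for DTX1 (0.0605) and -3.37 for HEYL (0.733). The slope of DTX1 was then about 3 times as steep as with all 12 lines.

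On MYCN, NRARP, a target that feeds back on the Notch complex, was the called gene among the 47 (1.10% of all genes were called higher), with a slope of 1.12 (SE 0.25, adjusted p = 0.0364 in edgeR). It was highest in SK-N-DZ at 11.2 CPM, NGP at 9.52 CPM and LS at 8.59 CPM, and lowest in Lan-6 at 0.576 CPM (0.175 CPM with the trend removed), SK-N-SH at 1.21 CPM and GI-ME-N at 1.24 CPM. Leaving out any 1 of SK-N-BE(2)C, GI-ME-N, IMR32, LS, NBL-S, NGP, SK-N-SH or SK-N-DZ took the call away, with adjusted p between 0.0508 and 0.0807, while the slope stayed between 1.04 and 1.29 over all lines left out in turn. It was also lost with all 14 lines (0.0517) and with the subclones in place of the parents (0.145).

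MFNG and LFNG, Fringe enzymes that add sugars to receptors and tune which ligand they answer, had the steepest slopes of their list, -1.34 (SE 0.86, adjusted p = 0.372) and -0.62 (SE 0.49, adjusted p = 0.478). MFNG was at 64.2 CPM in IMR5-75, 16.2 CPM in NGP, 5.17 CPM in SK-N-DZ and under 2 CPM elsewhere. LFNG was at 149.9 CPM in Lan-6, or 61.0 CPM with the trend removed, against 32.1 CPM in SK-N-FI, the next line. MAML3, a further Mastermind-like co-activator, had a slope of -0.65 (SE 0.25, adjusted p = 0.142). RBPJ, the DNA-binding partner of all receptors, was present in every line, with SK-N-SH lowest (72.2 CPM) and LS highest (301 CPM), with a slope near 0 (0.00, SE 0.20).

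The lists can be summarised as positive slopes out of those tested on the mesenchymal score. They were 0 of 5 for NOTCH4 and the other ligands, 2 of 5 for receptor glycosylation, 8 of 9 for cleavage, 0 of 4 for ligand endocytosis, 4 of 8 for inhibitors and turnover, 4 of 9 for the nuclear complex and 1 of 5 for other targets. Over all 47 genes tested, which include a list not broken down here, 19 were positive, with a median slope of -0.09. Among all 16906 genes tested on this score 46.6% had a positive slope, and the sign counts per list were given no test. DLL4 and DLL1, the canonical Delta ligands, had slopes of -1.15 (SE 0.56, adjusted p = 0.236) and -1.11 (SE 0.88, adjusted p = 0.478), and EP300, a histone acetyltransferase, -0.46 (SE 0.21, adjusted p = 0.209). DLL4 was near the floor, with a highest level of 1.24 CPM (NGP) and at most 10 counts in 6 of 14 lines. HES6, a partner that hinders HES1, had a slope of -0.60 (SE 0.35, adjusted p = 0.318).

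On MYCN the cleavage genes had negative slopes in 9 of 9, with a median of -0.24 and none called. PSENEN, a subunit of the presenilin complex, was the steepest at -0.98 (SE 0.27, adjusted p = 0.0607), followed by FURIN at -0.64 (SE 0.25, adjusted p = 0.14). NOTCH4 and the other ligands had positive slopes in 4 of 5, led by DLL1 at 0.81 and DLL4 at 0.59. The negative slope was that of the receptor NOTCH4, at -0.20. Positive slopes were also found in 2 of 5 (glycosylation), 3 of 4 (endocytosis), 4 of 8 (turnover), 6 of 9 (nuclear complex) and 4 of 5 (other targets). Over the same 47 genes 25 were positive, with a median slope of 0.08. Among all 16920 genes tested on MYCN 47.8% had a positive slope. These sign counts were given no test either, and the MYCN level and the mesenchymal score share extreme lines.

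HES4, a HES family repressor, marked other lines than HES1: it was at 34.3 CPM in LS, 25.6 CPM in SK-N-DZ, 12.9 CPM in NBL-S and 11.8 CPM in NGP, and had 13 counts in SK-N-SH. LS, SK-N-AS and SK-N-DZ were the 3 highest lines for NOTCH3, but SK-N-AS was not among the 4 lines above 10 CPM of HES4. NOTCH3 was at 10.6 CPM in NBL-S and 1.13 CPM in NGP. HES5, a classical Notch target in neural progenitors, had at most 12 counts in any line and 0 in 11 of them. The promoters printed above for HES1, HES4 and HEYL all hold the searched letters, while their highest lines were SK-N-SH, LS and Lan-6.

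SK-N-SH and its subclone SH-SY5Y differed in most members. In SK-N-SH, known as a culture of mixed cell morphology, NOTCH1 was 97.8-fold (95% counting interval 70.8 to 139), HES1 62.0-fold (48.4 to 80.9) and MAML2 44.4-fold (36.1 to 55.3) above SH-SY5Y. NOTCH2 was 6.88-fold, JAG1 5.41-fold and NOTCH3 2.19-fold higher. DLK1 was 159-fold higher in SH-SY5Y (interval 115 to 227), DLL3 2.90-fold and JAG2 2.43-fold. HEY1 differed least, with a ratio of 1.04 (0.926 to 1.16). With the trend removed, NOTCH2 was 8.40-fold and NOTCH3 2.51-fold higher in SK-N-SH. Both values lie outside the counting intervals (6.50 to 7.28 and 2.04 to 2.35), while the other members stayed inside theirs. Each ratio compares 2 libraries and has no replicate check.

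IMR32 and its subclone IMR5-75, both with low mesenchymal scores (-1.56 and -1.53), also differed. In IMR5-75 NOTCH3 was 16.4-fold (13.2 to 20.7), NOTCH2 6.36-fold (2.70 to 18.3), NOTCH1 3.54-fold, DLL3 2.44-fold, HES1 2.12-fold and MAML2 2.90-fold higher than in IMR32. Outside the 10 members, MFNG was 80.4-fold (56.8 to 118), DLL1 25.8-fold and HEYL 15.8-fold higher in IMR5-75. JAG2 had a ratio of IMR32 to IMR5-75 of 1.02 (0.951 to 1.09), and DLK1 of 0.851 (0.739 to 0.979). JAG1 and HEY1 were 1.47-fold and 1.44-fold higher in IMR32. With the trend removed, the ratio of IMR32 to IMR5-75 was 0.949 for JAG2 and 0.377 for DLL3 (counting interval 0.384 to 0.437).

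**Figure D5:**
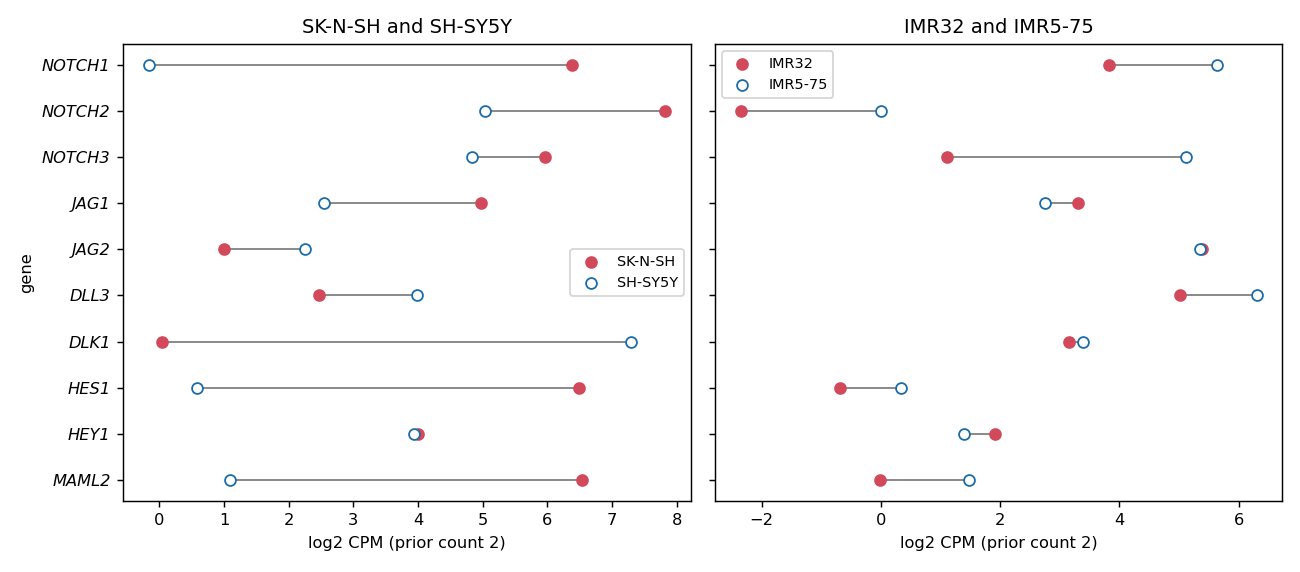
Points give log2 CPM of the 10 genes in a parent line (filled) and its subclone (open), joined by a line, for SK-N-SH and SH-SY5Y (left) and IMR32 and IMR5-75 (right). The widest gaps are those of DLK1, NOTCH1, HES1 and MAML2 on the left and NOTCH3 on the right, while HEY1 on the left and JAG2 on the right nearly coincide.

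Relations among the members over 12 lines are given as descriptions of log2 CPM, since all values of a line share a library. HES1 had r = 0.58 with HEY1 (rho 0.60), 0.56 with NOTCH2 (rho 0.52), 0.42 with NOTCH3 (rho 0.38), 0.31 with MAML2 (rho 0.28) and 0.27 with NOTCH1 (rho 0.17). These values leaned on SK-N-SH and GI-ME-N, which lie farthest from the HES1 median: with both left out r was 0.20 with HEY1, 0.20 with NOTCH2, 0.01 with NOTCH3, 0.26 with MAML2 and -0.07 with NOTCH1. HES1 and JAG1 had r = -0.29, and -0.72 without those lines. NOTCH2 and NOTCH3 had r = 0.71 (rho 0.51), and 0.58 without LS and SK-N-SH, where rho was 0.22. DLK1 and DLL3, both divergent ligands, had r = 0.11.

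For each member the genes with the most similar pattern were sought among 12542 genes whose mean over the 12 lines was 5 CPM or more, and up to 3 with r of at least 0.85 are named. NOTCH1 was nearest to ADAMTSL1 (r = 0.89), GTF2H5 (0.89) and FAM110B (0.89). NOTCH2 was nearest to FGFRL1 (0.90), EPHB4 (0.89) and NR1D2 (0.86), and NOTCH3 to GAS1 (0.86). JAG1 was nearest to SRR (0.95), FMN2 (0.92) and DACT1 (0.92), and JAG2 to BEND3P1 (0.88), SCARB1 (0.88) and C22orf39 (0.87). No other member was among these genes.

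DLL3 was near ARID1A (r = 0.94, rho 0.78) and ATF2 (r = 0.93, rho 0.94). DLK1 was nearest to FAM181B (0.96), SLC18A1 (0.96), a vesicular monoamine transporter, and RTL1 (0.94), its neighbour in the same imprinted region. HES1 was nearest to NSUN5P1 (0.89), C1QTNF6 (0.87) and NDST2 (0.85), and HEY1 to PPARA (0.92), CCNDBP1 (0.91) and UNC5B (0.89, rho 0.68). MAML2 was nearest to PEX2 (0.93) and NR1D2 (0.85), the latter also near NOTCH2. These likeness values, each among the 3 highest of 12542 for its member, were given no test.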

How the data were processed

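Per the labels' protocols, TruSeq libraries were prepared from TRIzol-extracted total RNA of 14 neuroblastoma lines. DESeq2 1.48.2, kallisto 0.44.0 and the build GRCh38 appear, with no role, in the submitters' processing notes. What the authors deposited was taken to be estimated counts per gene, rounded to whole numbers, which is inferred from the values. The deposited log2 values, variance-stabilised by name, served as an alternative.

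The members and lists were chosen with earlier results of these data known. CPM and log2 CPM (prior count 2) used TMM factors in edgeR 4.0.16 (R 4.3.3). Slopes on the mesenchymal score and on MYCN were fitted with edgeR's quasi-likelihood test over 12 lines for genes with at least 0.5 CPM in at least 3 lines, at an adjusted p of 0.05. P-values measure the spread between single libraries. The labels do not say whether strand was used in counting, so antisense reads cannot be told apart. Positions and lengths (longest protein-coding transcript) are from GENCODE 29, matched for 98.9% of symbols; promoter sequences are from RefSeq. GC and length trends were removed per library with splines of 4 degrees of freedom. Named genes were the members, called list genes, otherwise up to 2 per list with the steepest slopes, and up to 3 nearest genes per member; NOTCH4, DLL1, HES4, HES5 and RBPJ were chosen after their values were seen. The slope fits were tested on simulated counts. On MYCN a simulated slope of 1 was called 28% of the time and a slope of -1 18%. Alternatives were DESeq2 1.42.0, its size factors, limma 3.58.1 on the deposited log2 values, no filter, z-scored markers, a prior count of 0.5, all 14 lines, subclones for parents, the trend removed, and lines left out. A few genes are not reported here.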

Additional observations from a re-analysis of the deposited data

How the results depend on the processing

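With 1 library per line, every slope is limited by 12 points, and the mesenchymal score is carried by SK-N-SH and GI-ME-N. The members' mesenchymal slopes kept their direction and their side of the threshold in 195 of 210 values over all alternatives, passed it in 6 and changed sign in 9. Their MYCN slopes did so in 177 of 209, 4 and 28. The causes were not tested.

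On the mesenchymal score, 1182 genes were called, against 3095 with DESeq2, 693 with subclones for parents, 37 without SK-N-SH and GI-ME-N, and 380 (without GI-ME-N) to 2445 (without Lan-6) with 1 line left out. Members called were 3 with DESeq2, 1 with all 14 lines, and 0 to 1 with 1 line left out. With subclones for parents the slope was -0.90 for HES1 and -0.68 for NOTCH1. Without both farthest lines it was 1.71 for DLL3, 1.25 for HEY1 and -1.36 for JAG1. With 1 line left out it ran from -0.88 to 2.02 for HES1, -1.38 to 0.36 for HEY1 and -0.11 to 1.54 for NOTCH1.

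On MYCN, 625 genes were called, against 2996 with DESeq2, 344 with limma, 1278 with all 14 lines, 1447 without SK-N-SH and SK-N-AS, and 4 (without IMR32 or NGP) to 1461 (without SK-N-AS) with 1 line left out. With subclones for parents edgeR called 0, while 3692 genes had an unadjusted p under 0.05. DESeq2 and limma were not run on that set of lines. Members called were 2 with DESeq2, 1 with all 14 lines and 1 with the GC and length trend removed. With limma the slope was 0.013 for JAG1, 0.076 for MAML2 and 0.19 for NOTCH1. With subclones for parents it was -0.32 for DLK1, 0.18 for JAG1, 0.80 for MAML2, 2.64 for NOTCH1 and 1.14 for NOTCH2, and with all 14 lines -0.089 for DLK1. Without both farthest lines it was -1.19 for DLK1, 0.62 for MAML2, 2.20 for NOTCH1 and 2.67 for NOTCH3. With 1 line left out it ran from -0.55 to 1.08 for DLK1, -0.11 to 1.13 for DLL3, -0.58 to 0.15 for JAG1, -0.54 to 0.72 for MAML2, -0.61 to 2.31 for NOTCH1, -1.71 to 1.51 for NOTCH2 and -0.81 to 0.35 for NOTCH3. NOTCH2 gave no MYCN slope without both farthest lines, as it did not pass the filter there.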
